A study of Mus musculus with 8 samples.

Results

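Collagen chain genes encode the subunits of the main structural proteins of the extracellular matrix. Every row of the liver expression table whose symbol has the form Col, a number, a and a number was taken as a member, which gave 44 of the 52110 named genes. The liver libraries came from mice of WT genotype, all on the CDAHFD diet, which is high in fat, lacks choline, supplies defined amino acids and produces steatohepatitis. The mice were injected intravenously with extracellular vesicles from the blood of human volunteers, collected after remote limb ischemic conditioning (RIC_hEV, 4 libraries) or after a sham procedure (ctr_hEV, 4 libraries). The vesicles were human and the tissue was mouse. The sources used here do not give strain, age, vesicle dose, length of feeding or whether each library is a separate mouse, so the p-values measure only the spread between these 8 libraries.

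A collagen molecule is a helix wound from chains that may be identical or products of different genes. Fibrillar collagens assemble into the tensile fibrils that make up most of a liver scar. Basement-membrane collagen, type IV, forms sheet-like networks beneath epithelium and around vessels. FACIT collagens sit on the surface of fibrils, and the remaining classes include the beaded filaments of type VI, membrane-spanning collagens and the multiplexins, which carry sugar chains. In an injured liver, activated stellate cells and portal fibroblasts are known as the main makers of fibrillar collagen, while hepatocytes are known to make type XVIII.

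By class, 11 members were fibrillar, 6 were basement-membrane, 9 were FACIT and 18 were other collagens. Levels are in FPKM, fragment counts scaled by transcript length and by the size of the library. Different genes can be compared per length only as far as the lengths used hold. Those lengths are not given, so the order of genes by level and the size of ratios between chains depend on them. A mean of at least 1 FPKM over the 8 libraries was required for testing. It was reached by 15 members, of which 5 were fibrillar, 2 basement-membrane, 2 FACIT and 6 other. A further 6 averaged 0.1 to 1 FPKM, 21 lay above 0 and under 0.1, and Col9a1 and Col19a1 were listed at 0 in every library. Estimated depth was 19.3 to 28.5 M fragments in RIC_hEV and 23.7 to 28.8 M fragments in ctr_hEV (M, mega). Collagen genes together took 0.0334% to 0.0438% of the FPKM of a RIC_hEV library and 0.0336% to 0.0816% of that of a ctr_hEV library. The tissue label fits the defining hepatocyte markers, which were all detected and summed to 33032 to 38992 FPKM in RIC_hEV and 26488 to 41464 FPKM in ctr_hEV.

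Collagen levels separated the control libraries from one another more than they separated the groups. Of the 15 tested chains, 13 were highest in ctr_hEV 1 and next highest in ctr_hEV 3, and in the same 13 both of these libraries lay above every RIC_hEV library. That order, ctr_hEV 1 first and ctr_hEV 3 next, was found in 2705 of all 11274 tested genes, and both libraries lay above every RIC_hEV library in 39.9% of them. The other control libraries, ctr_hEV 2 and ctr_hEV 4, lay within or below the RIC_hEV range for each of these 13 chains. No collagen gene passed the limma test between groups, and 0.0355% of all tested genes did.

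**Figure D1:**
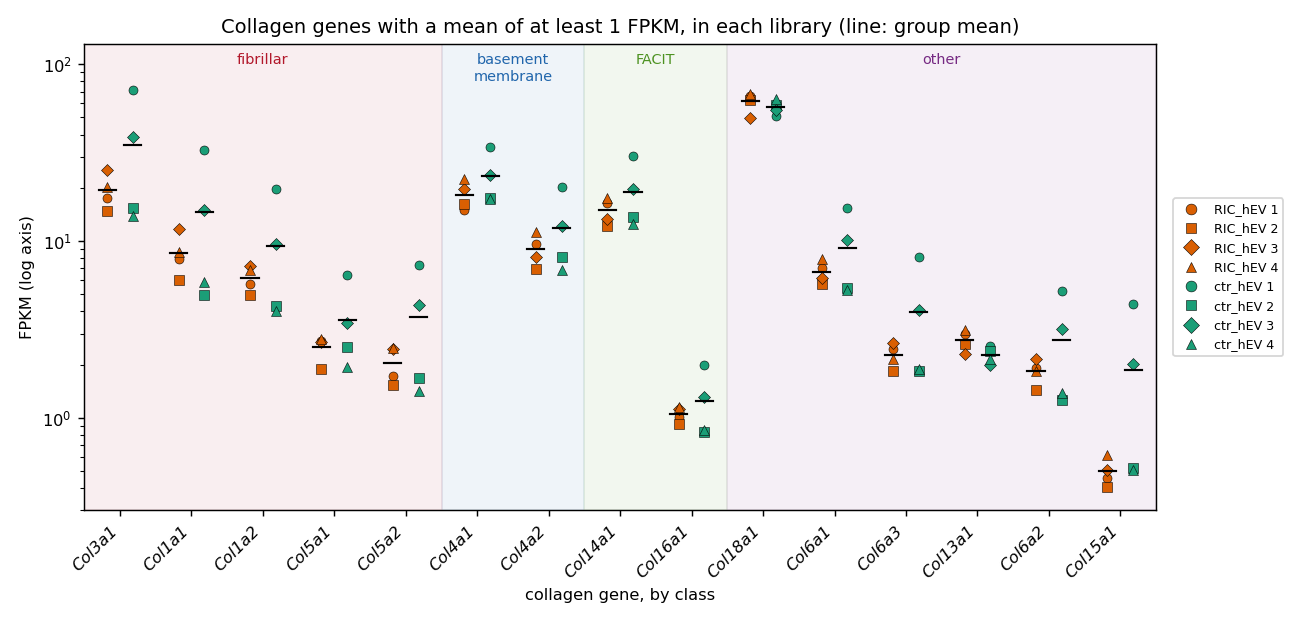
FPKM (log axis) of the 15 tested collagen genes, grouped by class, in each RIC_hEV library (left of each gene) and each ctr_hEV library (right), with lines at the group means. In 13 genes ctr_hEV 1 and ctr_hEV 3 are the highest points; Col18a1 and Col13a1 lack this order.

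Regions just upstream of the annotated starts are shown for chains that followed this order (Col3a1, Col5a1 and Col15a1) and for both that did not (Col13a1 and Col18a1). The sequences are 100 bases long, from base 120 to base 21 before the start, from RefSeq on build GRCm38.p6, and 12 of the 15 tested chains had an entry. Capitals mark matches on either strand to TATAA or to GGGCGG, the core of a GC box; CCAAT was searched in the same way and has no match in these windows.
Col3a1, chr1:45311418-45311517, plus strand: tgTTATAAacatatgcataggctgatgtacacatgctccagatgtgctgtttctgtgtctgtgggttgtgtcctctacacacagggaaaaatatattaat
Col5a1, chr2:27886305-27886404, plus strand: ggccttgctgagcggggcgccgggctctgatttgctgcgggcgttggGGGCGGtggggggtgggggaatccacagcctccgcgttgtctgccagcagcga
Col15a1, chr4:47207892-47207991, plus strand: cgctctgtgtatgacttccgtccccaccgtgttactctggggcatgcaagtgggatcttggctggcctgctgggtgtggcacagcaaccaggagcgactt
Col13a1, chr10:61979129-61979228, minus strand: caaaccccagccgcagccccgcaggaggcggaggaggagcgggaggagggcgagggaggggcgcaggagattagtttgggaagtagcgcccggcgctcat
Col18a1, upstream start, chr10:77166551-77166650, minus strand: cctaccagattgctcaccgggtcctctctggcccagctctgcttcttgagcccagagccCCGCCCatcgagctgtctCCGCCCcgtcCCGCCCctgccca

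Base composition ran from 39.0% G and C for Col3a1 to 72.0% for Col5a1. In Col3a1 the forward and reverse matches to TATAA overlap, and the window of the upstream Col18a1 start holds 3 GC-box cores. Over all 32851 promoter windows of this length, TATAA occurred in 10.7%, GGGCGG in 22.6% and CCAAT in 19.2%. Among the 14 windows of tested collagen genes, TATAA occurred in 1, GGGCGG in 4 and CCAAT in 3. Some of these windows lie within annotated exons. Exons cover 55 bases of the CCAAT window of Col16a1 and all 100 bases of those of Col1a2 and Col4a2. They also cover all 100 bases of the GGGCGG windows of Col4a2 and Col6a2, and none of those of Col5a1 and the upstream Col18a1 start. Col18a1 has a further annotated start, whose window holds no match to these motifs, and FPKM per gene does not tell transcripts of both starts apart.

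Among fibrillar collagens, the type III chain Col3a1, which forms fine fibrils together with type I, had the highest level. In the mouse annotation of build mm10, Col3a1 lies at chr1:45311538-45349706 on the plus strand. It measured 17.6, 14.8, 25.2 and 20.2 FPKM in RIC_hEV 1 to 4, and 71.8, 15.4, 38.5 and 13.8 FPKM in ctr_hEV 1 to 4. The control values thus enclosed all RIC_hEV values. On the log2(FPKM + 1) scale the change was -0.41 relative to the median tested gene and -0.52 as fitted (SE 0.44, 95% interval -1.49 to 0.45, limma adjusted p = 0.542). Here and below, a relative change is the fitted one minus the median of all tested genes, -0.11; SE, interval and p belong to the fitted change, and the log scale understates changes of low genes.

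The chains of type I collagen, the bulk protein of scars, followed the same library order. Col1a1 lies at chr11:94936224-94953042 and Col1a2 at chr6:4504814-4541544, both on the plus strand. Col1a1 measured 7.90, 5.99, 11.7 and 8.68 FPKM in RIC_hEV, against 32.7, 4.97, 14.9 and 5.85 FPKM in ctr_hEV. Its relative log2 change was -0.27 (-0.38 as fitted, SE 0.47, 95% interval -1.41 to 0.65, limma adjusted p = 0.679). Col1a2, its partner chain, measured 5.70, 4.98, 7.22 and 6.89 FPKM in RIC_hEV, against 19.7, 4.27, 9.67 and 4.03 FPKM in ctr_hEV (relative log2 change -0.18, SE 0.38, limma adjusted p = 0.698). For both type I chains ctr_hEV 2 and ctr_hEV 4 lay below every RIC_hEV library, while ctr_hEV 1 and ctr_hEV 3 lay above every one. The same split around the RIC_hEV values was seen in Col6a1, Col6a2 and Col16a1, that is in 5 of 15 tested chains, where in 5.99% of all tested genes ctr_hEV 2 and ctr_hEV 4 both lay below the RIC_hEV range.

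Type V collagen, which sets the diameter of type I fibrils, was lower in level. Col5a2 measured 1.73, 1.53, 2.44 and 2.48 FPKM in RIC_hEV, against 7.34, 1.68, 4.37 and 1.42 FPKM in ctr_hEV (relative log2 change -0.34, SE 0.34, limma adjusted p = 0.505). Col5a1 measured 2.73, 1.88, 2.67 and 2.78 FPKM in RIC_hEV, against 6.43, 2.51, 3.44 and 1.94 FPKM in ctr_hEV (relative log2 change -0.19, SE 0.25, limma adjusted p = 0.535). Col5a1 overlaps genes on the opposite strand over 2.5% of its exon bases, and the strand setting of the counting is not given. Col3a1 and Col5a2 are neighbours on chromosome 1, 24.6 kb apart and on opposite strands. The third type V chain, Col5a3, stayed under the filter at 0.796 to 0.934 FPKM in RIC_hEV and 0.764 to 1.38 FPKM in ctr_hEV. The cartilage chains Col2a1 and Col11a1 were listed above 0 in ctr_hEV 1 alone, at 0.00390 and 0.00568 FPKM. The remaining fibrillar members were Col11a2 (0.325 to 0.529 FPKM in RIC_hEV, 0.235 to 0.560 in ctr_hEV), Col27a1 (0.291 to 0.475 in RIC_hEV, 0.282 to 0.629 in ctr_hEV) and Col24a1, which averaged under 0.1 FPKM.

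Both tested basement-membrane chains had their highest level in ctr_hEV 1. Col4a1 and Col4a2, the chains of the common type IV network, start 21 bases apart on opposite strands of chromosome 8. Col4a1 measured 15.0, 16.2, 19.8 and 22.4 FPKM in RIC_hEV, against 34.2, 17.6, 23.7 and 17.3 FPKM in ctr_hEV (relative log2 change -0.18, SE 0.21, 95% interval of the fitted change -0.75 to 0.18, limma adjusted p = 0.493). Col4a2 measured 9.64, 6.99, 8.09 and 11.3 FPKM in RIC_hEV, against 20.1, 8.10, 12.1 and 6.86 FPKM in ctr_hEV (relative log2 change -0.15, SE 0.27, limma adjusted p = 0.620). Groups overlapped in both genes. Highest and lowest library differed 2.28-fold for Col4a1 and 2.92-fold for Col4a2, against 3.42-fold to 6.58-fold for the 5 tested fibrillar chains. Whether the classes differ in this spread was not tested, and under the filter the order was not kept: Col4a5 spanned 4.23-fold, and the fibrillar Col5a3 and Col27a1 spanned 1.80-fold and 2.23-fold. Col4a5, a chain of the network of kidney and other specialised basement membranes, stayed under the filter at 0.591, 0.653, 0.499 and 0.456 FPKM in RIC_hEV, against 1.93, 0.567, 1.30 and 0.496 FPKM in ctr_hEV, again highest in ctr_hEV 1 and ctr_hEV 3.

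The FACIT class was carried by Col14a1, which binds fibril surfaces. Col14a1 measured 16.4, 12.2, 13.4 and 17.4 FPKM in RIC_hEV, against 30.3, 13.6, 19.8 and 12.5 FPKM in ctr_hEV (relative log2 change -0.16, SE 0.24, limma adjusted p = 0.570). Col16a1 measured 1.0, 0.918, 1.12 and 1.15 FPKM in RIC_hEV, against 2.0, 0.835, 1.32 and 0.852 FPKM in ctr_hEV, with a relative log2 change of 0.0040 (-0.11 as fitted, limma adjusted p = 0.730). Col12a1, a stress-bearing FACIT, ranged from 0.215 to 0.494 FPKM in RIC_hEV and from 0.339 to 0.580 FPKM in ctr_hEV. Highest and lowest library differed 2.49-fold for Col14a1 and 2.40-fold for Col16a1, which is under the 3.42-fold of the narrowest tested fibrillar chain. Among members averaging 0.1 to 1 FPKM this order was not kept. There Col12a1 spanned 2.70-fold, and the fibrillar Col5a3, Col27a1 and Col11a2 spanned 1.80-fold, 2.23-fold and 2.38-fold.

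**Figure D2:**
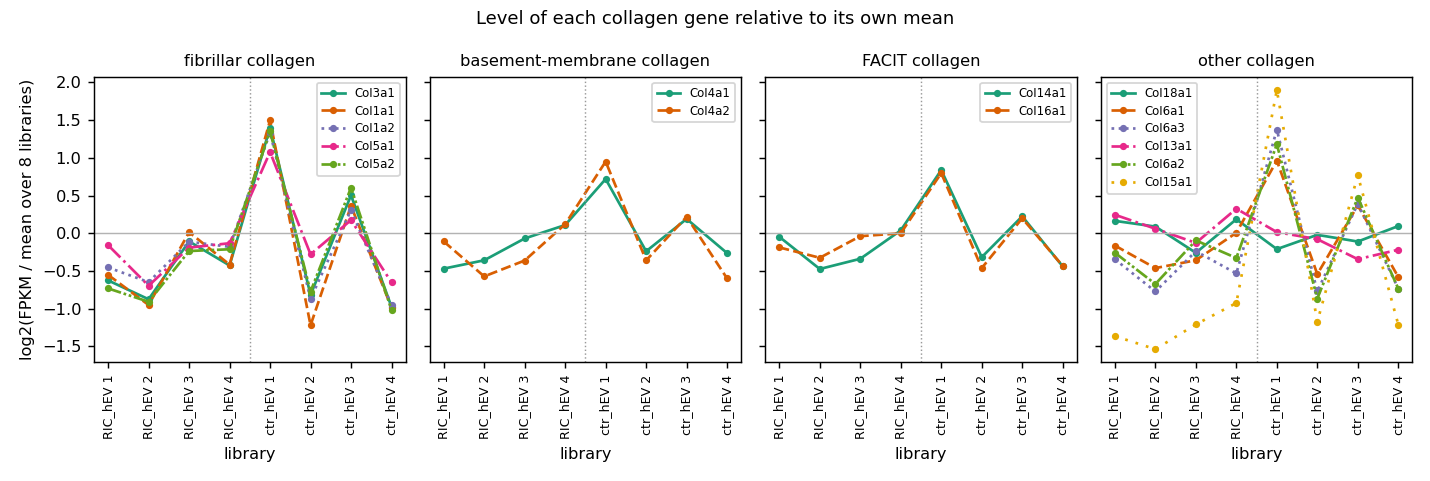
Level of each tested collagen gene in each library as log2 of FPKM over the gene's mean of 8 libraries, 1 panel per class, with RIC_hEV libraries left of the dotted line and ctr_hEV libraries right of it. Peaks at ctr_hEV 1 and, lower, at ctr_hEV 3 are seen in 13 genes, tallest for Col15a1, and are missing for Col18a1 and Col13a1.

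Among the other collagens, type VI chains, which form beaded filaments around cells, kept the library order. Col6a3 measured 2.46, 1.83, 2.65 and 2.16 FPKM in RIC_hEV, against 8.10, 1.83, 4.10 and 1.88 FPKM in ctr_hEV (relative log2 change -0.32, SE 0.32, limma adjusted p = 0.495). Col6a1 measured 7.05, 5.73, 6.16 and 7.93 FPKM in RIC_hEV, against 15.4, 5.42, 10.2 and 5.28 FPKM in ctr_hEV (limma adjusted p = 0.611). Col6a2 measured 1.92, 1.44, 2.15 and 1.83 FPKM in RIC_hEV, against 5.21, 1.26, 3.19 and 1.38 FPKM in ctr_hEV (limma adjusted p = 0.607). Groups overlapped in each of these 3 genes.

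Col15a1, a multiplexin of vessel and stromal basement membranes, had the widest range of the tested chains. The gene lies at chr4:47208161-47313167 on the plus strand. It measured 0.458, 0.406, 0.510 and 0.621 FPKM in RIC_hEV, against 4.40, 0.523, 2.01 and 0.509 FPKM in ctr_hEV. The RIC_hEV libraries lay within 1.53-fold of one another, and the ctr_hEV libraries within 8.64-fold. Its relative log2 change of -0.61 (-0.72 as fitted, SE 0.35, 95% interval -1.49 to 0.04) was the most negative of the 15 and did not pass (limma adjusted p = 0.367). Col15a1 passed the filter through ctr_hEV 1 and ctr_hEV 3 alone, since no other library reached 1 FPKM.

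Col18a1, the multiplexin from which endostatin is cut, was the most abundant chain and did not follow the others. The gene lies at chr10:77052178-77166548 on the minus strand. It measured 66.4, 63.0, 49.5 and 67.4 FPKM in RIC_hEV, against 51.2, 58.4, 54.9 and 63.3 FPKM in ctr_hEV. Here ctr_hEV 1 was the lowest control library, and the 8 libraries lay within 1.36-fold. The relative log2 change was 0.21 (0.10 as fitted, SE 0.12, 95% interval -0.17 to 0.38, limma adjusted p = 0.670). Col13a1, a membrane-spanning collagen, measured 2.98, 2.62, 2.30 and 3.15 FPKM in RIC_hEV, against 2.54, 2.38, 1.98 and 2.16 FPKM in ctr_hEV. It had the most positive relative log2 change of the 15, 0.31 (0.20 as fitted, SE 0.11, 95% interval -0.04 to 0.44, limma adjusted p = 0.397), and its groups overlapped.

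In order of mean level over all libraries, Col18a1 stood first at 59.3 FPKM, followed by Col3a1 at 27.2, Col4a1 at 20.8, Col14a1 at 17.0, Col1a1 at 11.6 and Col4a2 at 10.4 FPKM. Within RIC_hEV, Col3a1 (19.5 ± 4.43 FPKM) and Col4a1 (18.3 ± 3.38 FPKM) did not differ beyond their spread, nor did Col1a1 (8.56 ± 2.36) and Col4a2 (9.0 ± 1.86). Within ctr_hEV the spread of Col3a1 (34.9 ± 27.1 FPKM) covered the means of Col4a1 (23.2 ± 7.88) and Col14a1 (19.0 ± 8.17), all SD with n = 4. The SD is between libraries and does not measure the order of genes within a library. Compared within each library, Col3a1 was above Col14a1 in every one, whereas the order of Col3a1 and Col4a1 and of Col1a1 and Col4a2 changed between libraries.

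Summed over members, collagen FPKM was 162, 144, 158 and 179 in RIC_hEV, against 318, 142, 209.6 and 143 in ctr_hEV. Fibrillar chains made up 21.5% to 32.3% of that sum in RIC_hEV and 20.3% to 44.1% in ctr_hEV. Col18a1 alone made up 31.2% to 43.9% in RIC_hEV and 16.1% to 44.4% in ctr_hEV. Basement-membrane chains kept a share of 15.6% to 19.1% in RIC_hEV and 17.4% to 18.6% in ctr_hEV, and FACIT chains one of 9.30% to 11% in RIC_hEV and 9.75% to 10.5% in ctr_hEV. The fibrillar share was largest in ctr_hEV 1 and next in ctr_hEV 3. It exceeded the share of Col18a1 in RIC_hEV 3 (32.3% against 31.2%), in ctr_hEV 1 (44.1% against 16.1%) and in ctr_hEV 3 (35% against 26.2%).

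**Figure D3:**
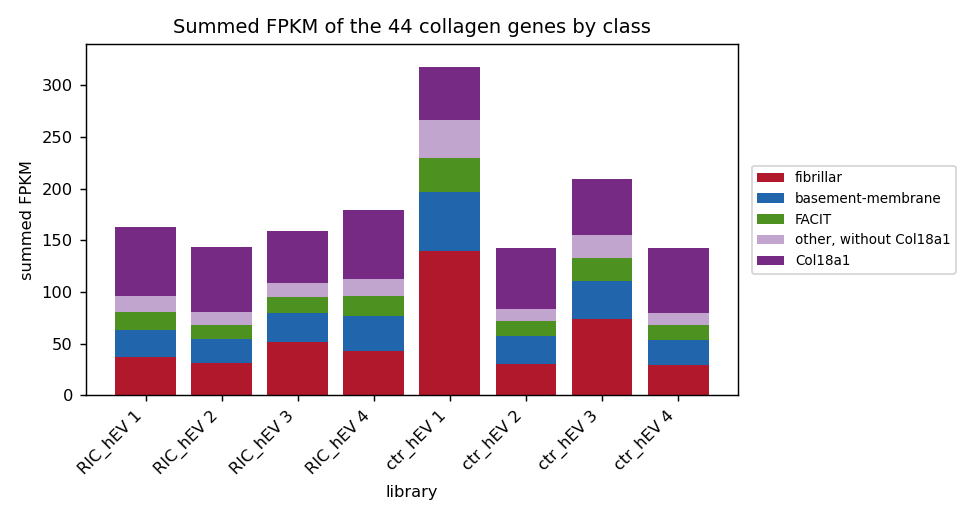
Summed FPKM of the 44 collagen genes in each library, RIC_hEV left and ctr_hEV right, stacked by class with Col18a1 separate. Totals are 318 in ctr_hEV 1 and 209.6 in ctr_hEV 3 and between 142 and 179 in the other libraries, while the Col18a1 segment stays between 49.5 and 67.4.

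Across all tested genes 4 passed limma at an adjusted p under 0.05, which is 0.0355%, and none was a collagen gene. At an unadjusted p under 0.05 there were also 0 of the 15 collagen genes in this fit, against 14.0% of tested genes. The groups did not overlap in 0 of 15 collagen genes, against 5.87% of tested genes in either direction. The collagen adjusted p ran from 0.367 to 0.730. Relative to the median gene 12 of the 15 were lower and 3 higher in RIC_hEV, with a median of -0.18 against 0 by construction over all tested genes. Class medians were -0.27 for 5 fibrillar chains, -0.16 for 2 basement-membrane chains, -0.08 for 2 FACIT chains and -0.17 for 6 other chains. These describe the members that passed the filter. In 13 of 15 chains the SD was larger in ctr_hEV than in RIC_hEV, as it was in 66.7% of all tested genes.

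The direction depended on ctr_hEV 1. Without it alone, 10 of 15 relative changes were above 0 and 5 below, whereas without ctr_hEV 3 alone 3 were above 0 and 12 below, the same numbers as with all libraries. Without both, all 15 relative changes were above 0, and the class medians became 0.40, 0.17, 0.19 and 0.22 in the order above. Col1a1 then had a relative log2 change of 0.58 (SE 0.21, limma unadjusted p = 0.0286) and Col1a2 one of 0.50 (SE 0.15, limma unadjusted p = 0.0115); their adjusted p were 0.886 and 0.826. In this setting limma gave an unadjusted p under 0.05 for 587 of 11274 tested genes. This pair of libraries was chosen with earlier results known. The upward shift and its p-values therefore follow a choice made on these data and are not separate evidence. Since both libraries were the highest in 13 chains, leaving them out had to lower the ctr_hEV means of those chains. For Col13a1 and Col18a1, which lack that order, the relative changes were 0.23 and 0.04 without the pair, against 0.31 and 0.21 with all libraries. Without ctr_hEV 4 the lowest adjusted p was 0.113, for Col15a1, and no collagen gene passed in any of the 16 alternatives.

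**Figure D4:**
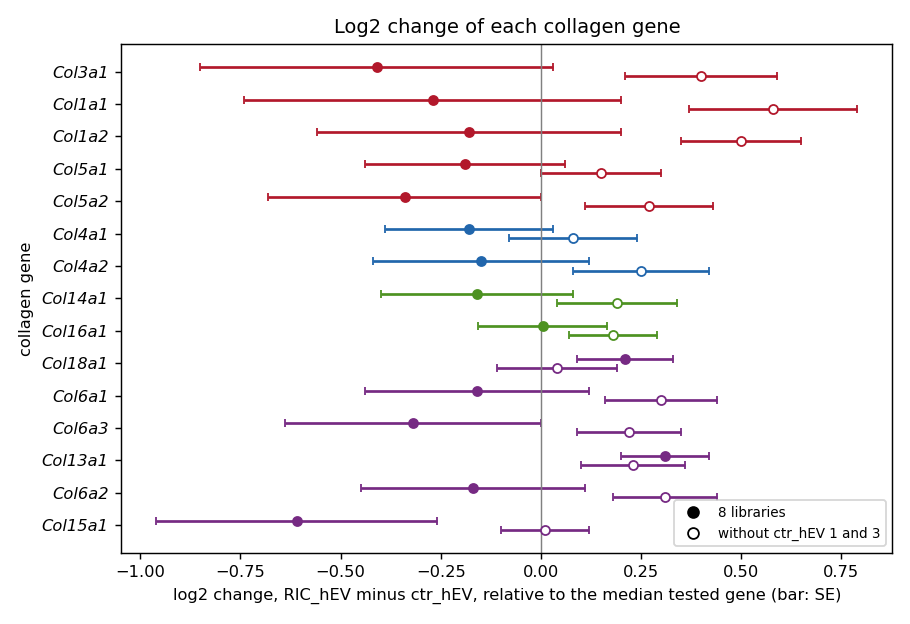
Log2 change of RIC_hEV against ctr_hEV for each tested collagen gene relative to the median tested gene, with SE bars, over 8 libraries (filled) and without ctr_hEV 1 and 3 (open). Filled points lie below 0 for 12 genes and open points above 0 for all 15. The libraries left out were the highest in 13 genes, so leaving them out had to lower the ctr_hEV means of those genes.

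Ratios between chains within a library cancel any scaling of that library. The ratio of Col3a1 to Col1a1 was 2.22, 2.48, 2.16 and 2.32 in RIC_hEV, against 2.2, 3.10, 2.58 and 2.35 in ctr_hEV. It spanned 1.43-fold over libraries in which Col1a1 itself spanned 6.58-fold. The ratio of Col1a1 to Col1a2 was 1.39, 1.2, 1.62 and 1.26 in RIC_hEV, against 1.66, 1.16, 1.54 and 1.45 in ctr_hEV, also a 1.43-fold span. For type IV, Col4a1 over Col4a2 ranged from 1.56 to 2.45 in RIC_hEV and from 1.70 to 2.52 in ctr_hEV. The type IV ratio spanned 1.62-fold over libraries in which Col4a1 spanned 2.28-fold and Col4a2 2.92-fold. For the ratio of Col1a1 to Col1a2, the chains themselves spanned 6.58-fold and 4.89-fold.

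Ratios between classes were wider. Col4a1 over Col1a1 was 1.90, 2.70, 1.70 and 2.58 in RIC_hEV, against 1.05, 3.55, 1.59 and 2.96 in ctr_hEV. Col14a1 over Col1a1 was 2.07, 2.03, 1.15 and 2.0 in RIC_hEV, against 0.928, 2.74, 1.32 and 2.13 in ctr_hEV, and Col18a1 over Col1a1 ran from 4.24 to 10.5 in RIC_hEV and from 1.57 to 11.8 in ctr_hEV. The lowest value of these 3 ratios was found in ctr_hEV 1. None of 9 ratios tested differed between groups in two-sided exact permutation tests over 70 assignments of libraries (unadjusted p of 0.257 to 0.943, adjusted p = 0.943 for each, smallest p possible 0.0286). Mean log2 ratios differed by -0.09 for Col1a1 to Col1a2, -0.14 for Col3a1 to Col1a1, -0.02 for Col4a1 to Col4a2 and 0.50 for Col18a1 to Col1a1, RIC_hEV minus ctr_hEV.

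**Figure D5:**
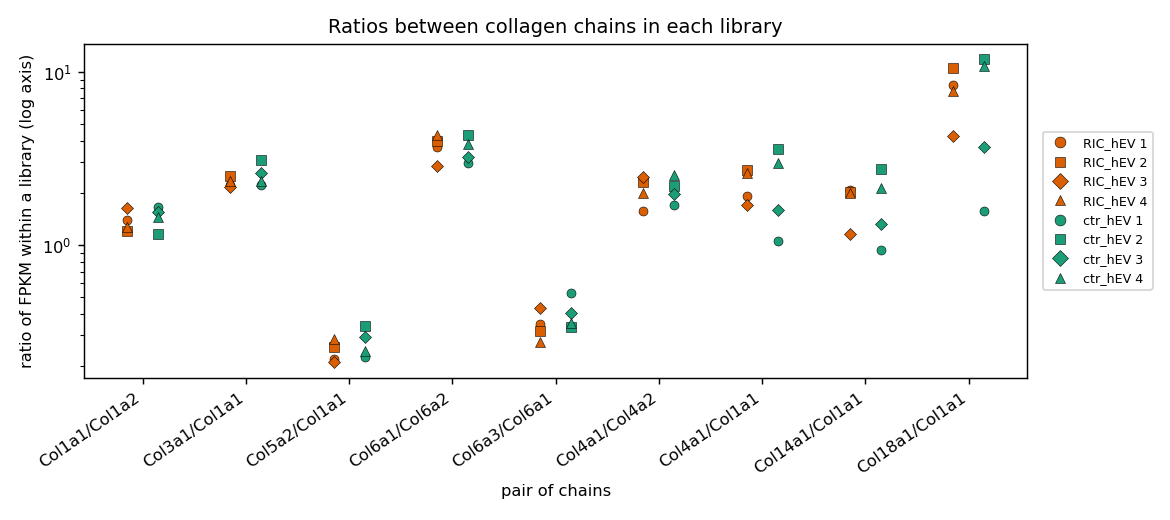
Ratios of FPKM between pairs of collagen chains within each library (log axis), RIC_hEV left and ctr_hEV right of each pair. Col1a1/Col1a2 and Col3a1/Col1a1 lie within 1.43-fold and Col4a1/Col4a2 within 1.62-fold, whereas Col18a1/Col1a1 spans 7.51-fold, lowest in ctr_hEV 1.

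Among the other collagens under the filter, Col8a1, a network-forming chain, ranged from 0.0726 to 0.191 FPKM in RIC_hEV and from 0.119 to 0.509 FPKM in ctr_hEV. Of the 21 members above 0 and under 0.1 FPKM on average, Col23a1, a membrane-spanning chain, reached 0.115 FPKM in RIC_hEV and 0.216 FPKM in ctr_hEV. Col4a4 and Col4a6, both type IV chains, stayed at or under 0.0570 FPKM in RIC_hEV and reached 0.15 and 0.162 FPKM in ctr_hEV. Col20a1 had its highest value, 0.148 FPKM, in a RIC_hEV library. Col6a5, Col6a6, Col7a1, Col8a2, Col9a2, Col10a1, Col17a1, Col22a1, Col25a1, Col26a1, Col28a1 and Col6a4 stayed at or under 0.103 FPKM in RIC_hEV and 0.120 FPKM in ctr_hEV.

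Members under the filter rested on few fragments. Of the 27 that were above 0 but under 1 FPKM, the groups did not overlap in 2, both lower in RIC_hEV, where 2.64% of all genes in that range did so. Col4a3, a type IV chain of the kidney filter, measured 0.0477, 0.0373, 0.0677 and 0.0593 FPKM in RIC_hEV, against 0.153, 0.0915, 0.118 and 0.0795 FPKM in ctr_hEV. Col9a3, a cartilage FACIT chain, measured 0.0261, 0, 0 and 0.0134 FPKM in RIC_hEV, against 0.256, 0.0494, 0.0987 and 0.0763 FPKM in ctr_hEV. At the estimated depths these are about 7.5 to 19 fragments in RIC_hEV and 20.1 to 42 in ctr_hEV for Col4a3, and 0 to 2.6 in RIC_hEV and 5.5 to 27 in ctr_hEV for Col9a3. With no filter limma gave an adjusted p of 0.530 for Col4a3 and 0.543 for Col9a3 (unadjusted p of 0.0111 and 0.0237). Both share exon bases with a gene on the opposite strand, 5.65% of Col4a3 with C430014B12Rik and 6.07% of Col9a3 with Tcfl5. C430014B12Rik was at 0.0733 to 0.200 FPKM in RIC_hEV and 0.0991 to 0.137 in ctr_hEV, and Tcfl5 was at 0 in RIC_hEV and at most 0.0224 FPKM in ctr_hEV.

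Cell markers moved with the library order of the collagens. Stellate cell markers (10 of 10 in the table, 9 tested) summed to 60.5 to 64.9 FPKM in RIC_hEV and to 99.0, 54.7, 81.5 and 57.9 FPKM in ctr_hEV. Myofibroblast markers (7 of 7, 6 tested) summed to 37.4 to 62.1 FPKM in RIC_hEV and to 179, 46.6, 137 and 43.9 FPKM in ctr_hEV, of which Spp1, also made by bile duct cells, gave 129, 22.5, 97.7 and 24.7 FPKM. Portal fibroblast markers (9 of 9, 5 tested) summed to 14.5 to 15.3 FPKM in RIC_hEV and to 30.7, 12.3, 26.5 and 13.7 FPKM in ctr_hEV. Cholangiocyte markers (6 of 6, 3 tested) summed to 3.13 to 3.5 FPKM in RIC_hEV and to 19.4, 4.17, 11.1 and 3.17 FPKM in ctr_hEV, and no list named so far had a marker at 0 throughout. Mesothelial markers (6 of 6, 1 tested) summed to 1.47 to 1.89 FPKM in RIC_hEV and 2.18 to 5.88 FPKM in ctr_hEV, and Krt19, which the cholangiocyte list also holds, gave 4.18 of the 5.88 FPKM in ctr_hEV 1. Each of these sums was highest in ctr_hEV 1 and next highest in ctr_hEV 3.

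Endothelial and hepatocyte markers did not share that order. Sinusoidal endothelial markers summed to 77.5 to 103 FPKM in RIC_hEV and 77.4 to 88.5 FPKM in ctr_hEV, and those of vascular endothelium to 19.9 to 27.8 FPKM in RIC_hEV and 23.2 to 27.7 FPKM in ctr_hEV. The hepatocyte sum was lowest in ctr_hEV 1 (26488 FPKM) and next lowest in ctr_hEV 3 (32969.8 FPKM), close to RIC_hEV 4 (33032 FPKM). All 8 hepatocyte markers were higher in RIC_hEV relative to the median gene, and 0 passed limma. Smooth muscle markers summed to 2.92 to 3.48 FPKM in RIC_hEV and 3.59 to 5.69 FPKM in ctr_hEV, macrophage markers to 169.5 to 240.3 FPKM in RIC_hEV and 176 to 327 FPKM in ctr_hEV, and neutrophil markers to 7.95 to 16.2 FPKM in RIC_hEV and 14.4 to 63.7 FPKM in ctr_hEV. Smooth muscle and macrophage sums also had their highest values in ctr_hEV 1 and ctr_hEV 3, and the neutrophil sum in ctr_hEV 3 and ctr_hEV 1. The macrophage list was split, since Adgre1, Cd68, Trem2 and Gpnmb had this order and Clec4f and Timd4 did not. Clec4f measured 54.0, 64.7, 47.4 and 57.4 FPKM in ctr_hEV 1 to 4, and Timd4 measured 2.23, 3.13, 1.91 and 2.97 FPKM. Markers of cartilage, bone or skeletal muscle summed to at most 0.325 FPKM in RIC_hEV and 0.0602 FPKM in ctr_hEV, with Matn1, Bglap, Ibsp and Myh4 at 0 throughout. Adipocyte markers summed to 49.1 to 80.9 FPKM in RIC_hEV and 44.5 to 98.1 FPKM in ctr_hEV, nearly all of it Cidec, a lipid-droplet gene, with Plin1 at most 0.0151 FPKM and Adipoq and Lep at 0 throughout. The part of these markers in the collagen levels was not tested, and in whole tissue fewer cells of a type and less RNA per cell cannot be told apart.

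Of 72 genes listed as processing, binding, sensing, degrading or regulating collagen, 71 had a row, and Ccn2 had none under that symbol. Of these, 52 were tested and 0 passed limma over all genes (8 at an unadjusted p under 0.05, near the 14.0% of all tested genes). Relative to the median gene 39 were lower and 13 higher in RIC_hEV. The lower ones include Lox, Plod2, Adamts14 and Fmod, whose mean reached 1 FPKM in ctr_hEV and not in RIC_hEV, so these counts describe the genes that passed the filter. The intracellular processing genes were 10 higher and 6 lower, the propeptide-cleaving enzymes 2 higher and 2 lower, the crosslinking enzymes 3 lower, the fibril-binding proteins 1 higher and 9 lower, the receptors 4 lower, the collagenases, gelatinases and their inhibitors 6 lower and the regulators 9 lower. Median relative log2 changes of these lists were 0.05, -0.02, -0.29, -0.11, -0.20, -0.38 and -0.20 in that order. The summed FPKM of each of the 7 lists was highest in ctr_hEV 1 and next highest in ctr_hEV 3. In the same order, 10, 3, 3, 9, 3, 6 and 7 of their tested genes were highest in ctr_hEV 1, as were 44.7% of all tested genes. Whether the directions of these lists depend on ctr_hEV 1 and ctr_hEV 3 was not tested.

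Lysyl oxidases join collagen chains outside the cell, and both that are named here had the library order of the chains. Loxl2 measured 2.83, 1.88, 3.16 and 3.53 FPKM in RIC_hEV, against 8.13, 2.77, 5.21 and 2.25 FPKM in ctr_hEV (limma adjusted p = 0.468). Lox averaged 0.820 ± 0.264 FPKM in RIC_hEV and 1.58 ± 1.22 FPKM in ctr_hEV (SD, n = 4 each; limma adjusted p = 0.488). Serpinh1, the collagen chaperone of the endoplasmic reticulum, did not have that order, at 15.0, 6.93, 16.3 and 17.0 FPKM in RIC_hEV, against 20.5, 7.93, 6.37 and 18.0 FPKM in ctr_hEV (limma adjusted p = 0.858). Among proteoglycans that coat fibrils, Dcn was at 64.4 ± 9.62 FPKM in RIC_hEV and 73.5 ± 9.35 FPKM in ctr_hEV, and Lum at 18.4 ± 4.20 FPKM in RIC_hEV and 27.4 ± 12.0 FPKM in ctr_hEV (limma adjusted p = 0.488 and 0.437).

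The gelatinase Mmp2 was at 2.74 ± 0.501 FPKM in RIC_hEV and 3.86 ± 2.19 FPKM in ctr_hEV, and the inhibitor Timp1 at 3.14 ± 0.858 FPKM in RIC_hEV and 6.51 ± 4.42 FPKM in ctr_hEV (SD, n = 4 each; limma adjusted p = 0.578 and 0.379). The collagen receptor Ddr2 stayed under the filter at 0.787 to 1.07 FPKM in RIC_hEV and 0.915 to 1.21 FPKM in ctr_hEV. The collagenase Mmp13 differed from the chains in that ctr_hEV 2 and ctr_hEV 4 were high as well. It measured 2.40, 2.96, 2.49 and 2.72 FPKM in RIC_hEV, against 6.11, 5.21, 3.87 and 4.53 FPKM in ctr_hEV (limma adjusted p = 0.214). Its groups did not overlap, as in 5.87% of all tested genes in either direction. Among the tested pathway genes the groups of the receptor Lair1 did not overlap either.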

How the data were processed

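RNA sequencing of whole liver was analysed in 8 libraries, 4 per group, with groups and replicate numbers read from the titles. Total RNA was extracted with Trizol, per the labels' protocols. Named in the submitters' processing notes are HISAT2 2.2.1, HTSeq 0.13.5, DESeq2 1.18.1, R 3.4.1, Trimmomatic 0.38, FastQC 0.11.9 and build mm10. The authors deposited FPKM values per gene; which program computed them, from which annotation and lengths, and whether strand was used, the sources used here do not say. Of 55335 rows, 3225 named no gene and stayed out of the tests; they held 0.176% to 0.207% of the FPKM of a library. FPKM summed to 389616 to 430326 per library. Depth was estimated from the steps between low values. Only 14.6% to 16.25% of low values (under 20 steps) lay within 0.02 of a whole number of steps, so fragment numbers are estimates and no count test was run.

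Genes with a mean of at least 1 FPKM (11274) were compared on log2(FPKM + 1) with limma 3.58.1 in R 4.3.3, with a trend and Benjamini-Hochberg adjustment over all of them at 0.05, RIC_hEV over ctr_hEV. The fit was tested on simulated data. Of 9 ratios between chains, mean log2 values were compared by two-sided exact permutation. Every member was described, with per-library values for tested ones. Of the pathway lists, FPKM values were given for 9 genes. Members, lists and the alternative without ctr_hEV 1 and ctr_hEV 3 were chosen with earlier results of these data known. Alternatives were another pseudocount, other filters, TPM scaling, median centring, quantile normalization, a replicate block and leaving out libraries. Positions of overlapping and neighbouring genes came from a mouse annotation of the same build, in which all 44 members were found.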

Additional observations from a re-analysis of the deposited data

Results flagged for a closer look

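Of 60 groups of 4 libraries examined for a value far from the others, covering both groups of the 21 collagen genes with a mean of at least 0.1 FPKM and of the 9 chain ratios, 2 held one, and chance flags about 1 in 20 groups. In Col5a1, RIC_hEV 2 measured 1.88 FPKM, and the nearest RIC_hEV library measured 2.67 FPKM. That gap was 0.883 of the group's range, above the critical value of Dixon's test for 4 values. For Col14a1 over Col1a1, RIC_hEV 3 had a ratio of 1.15 and the nearest RIC_hEV library one of 2.0, a gap of 0.924 of the range. RIC_hEV 3 also had the highest Col1a1 level of its group, 11.7 FPKM.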

How the results depend on the processing

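The number of collagen genes that passed was 0 in all 16 alternatives. Over all genes, where 4 passed, 2 passed with no filter, 6 with a filter at 0.1 FPKM, 6 with median centring, 6 with quantile normalization, 8 without ctr_hEV 1 and 3, and 1 to 176 with 1 library left out, 176 without ctr_hEV 4. With the replicate block 3 genes passed and no collagen gene did. Deviations from the group mean in libraries of equal number correlated at 0.0524, 0.120, -0.00854 and -0.227. The labels state no pairing, and these correlations cannot decide whether libraries of equal number share a source.

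Col13a1 and Col18a1 kept their direction in all 16 alternatives, at 0.23 and 0.04 without ctr_hEV 1 and 3. The limma unadjusted p of Col13a1 was 0.00792 with median centring and 0.00737 with quantile normalization (adjusted p = 0.337 and 0.387). That of Col15a1 was 0.0363 with the replicate block (adjusted p = 0.493). Of 11274 tested genes, 1356, 1212 and 1118 were under 0.05 in these settings. Col13a1 was also under 0.05 without RIC_hEV 3, and Col15a1 without ctr_hEV 2 or ctr_hEV 4. Of 240 member values under the alternatives, 28 changed direction. Without ctr_hEV 1 and 3, relative log2 changes were 0.58 for Col1a1, 0.50 for Col1a2, 0.40 for Col3a1, 0.15 for Col5a1, 0.27 for Col5a2, 0.08 for Col4a1, 0.25 for Col4a2, 0.19 for Col14a1, 0.01 for Col15a1, 0.30 for Col6a1, 0.31 for Col6a2 and 0.22 for Col6a3. Col16a1, near 0, was at -0.02 with a pseudocount of 0.1, -0.08 with no filter, -0.02 with a filter at 0.1 FPKM and -0.0011 on the TPM scale. With 1 library left out, ranges crossed 0 for Col1a1 (-0.61 to 0.18), Col1a2 (-0.42 to 0.19), Col5a1 (-0.33 to 0.03), Col4a2 (-0.31 to 0.08), Col14a1 (-0.28 to 0.04), Col16a1 (-0.08 to 0.11), Col6a1 (-0.33 to 0.07) and Col6a2 (-0.37 to 0.07). Log2 differences of ratios without ctr_hEV 1 and 3 were 0.06 for Col1a1 to Col1a2, -0.14 for Col6a1 to Col6a2, -0.57 for Col4a1 to Col1a1, -0.45 for Col14a1 to Col1a1 and -0.62 for Col18a1 to Col1a1. With 1 library left out they ran from -0.11 to 0.11 for Col4a1 to Col4a2, -0.23 to 0.36 for Col4a1 to Col1a1, -0.03 to 0.17 for Col6a1 to Col6a2, -0.16 to 0.36 for Col14a1 to Col1a1 and -0.08 to 0.89 for Col18a1 to Col1a1. Beyond the libraries left out, the cause of these shifts was not tested. Median centring moved the median of all genes to 0.025 and the unadjusted calls to 918 higher and 438 lower, against 297 higher and 1279 lower.

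With 4 libraries per group and this spread among the ctr_hEV libraries, the interval of Col1a1 runs from -1.41 to 0.65. Members under 0.1 FPKM rest on few fragments.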
